A study of Mus musculus with 4 samples.

Results

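Germ cell genes were examined in RNA from 2 interstitial cell populations of the postnatal day 10 mouse testis. The 49 genes are named genes of spermatogonia, of the piRNA pathway and of early meiosis. The rule that lists them uses no measured value, but the list was drawn up with earlier results of these data known. Of these, 48 were found among the 22802 rows of the expression table, 2 of them under older symbols (Meioc as Gm1564 and Tex13b as Tex13), while Rpa4 was not matched. All animals carried mFLE-Cre and CAG-CAT-EGFP on the C57BL/6J strain. In CAG-CAT-EGFP mice, Cre recombinase removes a stop cassette and switches on enhanced green fluorescent protein (EGFP). The labels do not say which cell type drives mFLE-Cre, nor how many animals gave each library. Dispersed interstitial cells were sorted for EGFP and for laminin, a basement membrane protein, into laminin-positive cells (2 libraries) and laminin-negative cells (2 libraries). The sample labels call both populations EGFP-positive, whereas laminin-negative cells are EGFP weak in the design text. The comparison therefore sets laminin-positive against laminin-negative cells of the same genotype, strain, age and tissue, and EGFP strength may differ along with laminin.

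Male germ cells live inside the seminiferous tubules, apart from the interstitium that surrounds them. Spermatogonial stem cells, held undifferentiated by factors such as ZBTB16, SALL4 and NANOS2, give rise to differentiating spermatogonia that answer retinoic acid with STRA8 and enter meiosis. There, cohesins and synaptonemal complex proteins shape the paired chromosomes, and SPO11 and DMC1 act in recombination. Throughout, PIWI proteins with small piRNAs and Tudor-domain partners keep transposons silent, and DDX4 and DAZL, an RNA helicase and an RNA-binding protein, mark germ cells of nearly every stage. In the first wave of spermatogenesis, spermatogonia and early spermatocytes are the germ cells present at about this age in the mouse.

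Promoters of 4 of the genes are shown here as examples. Ddx4 and Dazl are the general germ cell markers, and Mael was the highest of the piRNA genes. The window of the spermatogonial factor Sohlh1 held 3 E-boxes. The 4 genes were chosen after the values and the motif matches were seen. Each is the 250 bases before the RefSeq start on GRCm38.p6, all on the minus strand and printed 5′ to 3′, at chr13:112652311-112652560 for Ddx4, chr17:50293621-50293870 for Dazl, chr1:166238745-166238994 for Mael and chr2:25847249-25847498 for Sohlh1. Capitals mark the palindromic E-box CACGTG, read by MYC and MAX family proteins among others, or, in Dazl, the palindrome TGCGCA, part of the site of the factor NRF1.
Ddx4: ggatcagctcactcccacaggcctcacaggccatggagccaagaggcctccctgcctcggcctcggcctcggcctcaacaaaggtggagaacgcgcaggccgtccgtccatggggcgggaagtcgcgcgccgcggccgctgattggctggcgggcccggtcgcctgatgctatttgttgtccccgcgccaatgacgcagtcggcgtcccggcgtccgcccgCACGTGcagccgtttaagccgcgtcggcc
Dazl: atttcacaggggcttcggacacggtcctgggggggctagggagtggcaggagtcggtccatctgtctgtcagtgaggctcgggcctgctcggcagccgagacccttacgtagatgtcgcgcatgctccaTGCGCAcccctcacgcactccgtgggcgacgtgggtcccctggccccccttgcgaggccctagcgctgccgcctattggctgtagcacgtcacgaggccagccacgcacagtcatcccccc
Mael: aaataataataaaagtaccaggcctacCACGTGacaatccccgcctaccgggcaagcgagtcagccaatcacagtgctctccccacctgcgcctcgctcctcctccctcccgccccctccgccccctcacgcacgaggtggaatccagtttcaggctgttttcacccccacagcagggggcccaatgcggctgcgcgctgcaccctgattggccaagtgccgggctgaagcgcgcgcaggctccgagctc
Sohlh1: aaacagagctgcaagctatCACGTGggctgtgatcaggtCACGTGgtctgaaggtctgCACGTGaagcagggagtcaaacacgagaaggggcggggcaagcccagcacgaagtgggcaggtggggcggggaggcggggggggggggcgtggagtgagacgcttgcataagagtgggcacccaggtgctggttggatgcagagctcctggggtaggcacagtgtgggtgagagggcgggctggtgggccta
The E-box of Ddx4 began 29 bases before the start, that of Mael 223 bases before it, and the 3 of Sohlh1 at 231, 211 and 192 bases. In the GENCODE annotation the Ddx4 gene reaches to 112652475, inside its printed window. The E-box of Ddx4 is thus before the RefSeq start but within the GENCODE gene. The TGCGCA of Dazl began 121 bases before the start. Among the 39 germ cell genes with a promoter in the RefSeq table, 14 held CACGTG in this window (35.9%), against 7.61% of 17492 protein-coding genes and 6.86% of all 27025 genes. TGCGCA was present in 12 of the 39 (30.8%), against 9.19% of protein-coding genes and 7.36% of all genes. GGCGGGA, an E2F motif, was found in 12.8% of the germ cell genes, against 14.5% of protein-coding genes. CCAAT was found in 35.9% of the germ cell genes, against 39.5% of protein-coding genes, and TATAAA in 10.3% of the germ cell genes, against 13.7% of protein-coding genes. Both strands were searched, and each motif was counted on its own even where matches shared bases. The 39 germ cell genes had 48 windows in all, so some genes had several windows in which a motif could be found. CACGTG and TGCGCA each contain a CpG, and the median over genes was 14 CpGs in the germ cell genes against 11 in protein-coding genes. The E-box share was 37.5% in the 16 of these genes that rose in laminin-positive cells and 34.8% in the other 23. These matches describe the sequence and no binding was measured here.

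Values are the authors' deposited FPKM, a level per transcript length and per library total. The table rows of each library summed to 503950 and 491475 FPKM in laminin-positive and to 532323 and 548986 FPKM in laminin-negative libraries, and between 11794 and 12011 rows reached 1 FPKM. No source used here states read totals, so the depth is unknown. As a rough guide, the lowest steps of the values put 1 FPKM of a 2 kb transcript at about 56 to 59.4 fragments. Smooth muscle and pericyte markers marked the laminin-positive cells and Leydig cell markers the laminin-negative cells, as given with their values further on.

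Most germ cell genes were higher in laminin-positive cells, and most were at low levels in both populations. In both laminin-positive libraries 38 of the 48 genes were above both laminin-negative libraries, and 3 (Dmrtb1, Meioc and Dnmt3l) were below both. Over the 18255 rows above 0 in at least 1 library, these 2 orders held for 36.3% and 31.3%. The 48 genes together summed to 110 and 107 FPKM in laminin-positive libraries, against 42.9 and 49.7 FPKM in laminin-negative libraries, a ratio of the mean sums of 2.34. Their share of all FPKM was 0.0218% in both laminin-positive libraries and 0.00806% and 0.00905% in the laminin-negative ones. In these bulk libraries, fewer germ cells and less of these transcripts per cell cannot be told apart. Uchl1, Zbtb16, Dmrt1 and Hells are also active outside the germ line. Without them the sums were 70.1 and 68.2 FPKM in laminin-positive against 29.8 and 36.9 FPKM in laminin-negative libraries, a ratio of 2.07. The genes left are not all restricted to the germ line, since Ddx25 is also expressed in Leydig cells. They also include Tex14, Sycp3, Dnmt3l, Syce2 and Dnd1, whose rows reach 821, 30.7, 11.9, 5.70 and 3.43 kb beyond the annotated genes. The mean reached 5 FPKM for 5 genes in laminin-positive cells (Uchl1, Zbtb16, Dazl, Dmrt1 and Mael) and for 1 in laminin-negative cells (Uchl1), and it stayed under 1 FPKM for 19 genes in laminin-positive and 34 genes in laminin-negative cells.

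**Figure D1:**
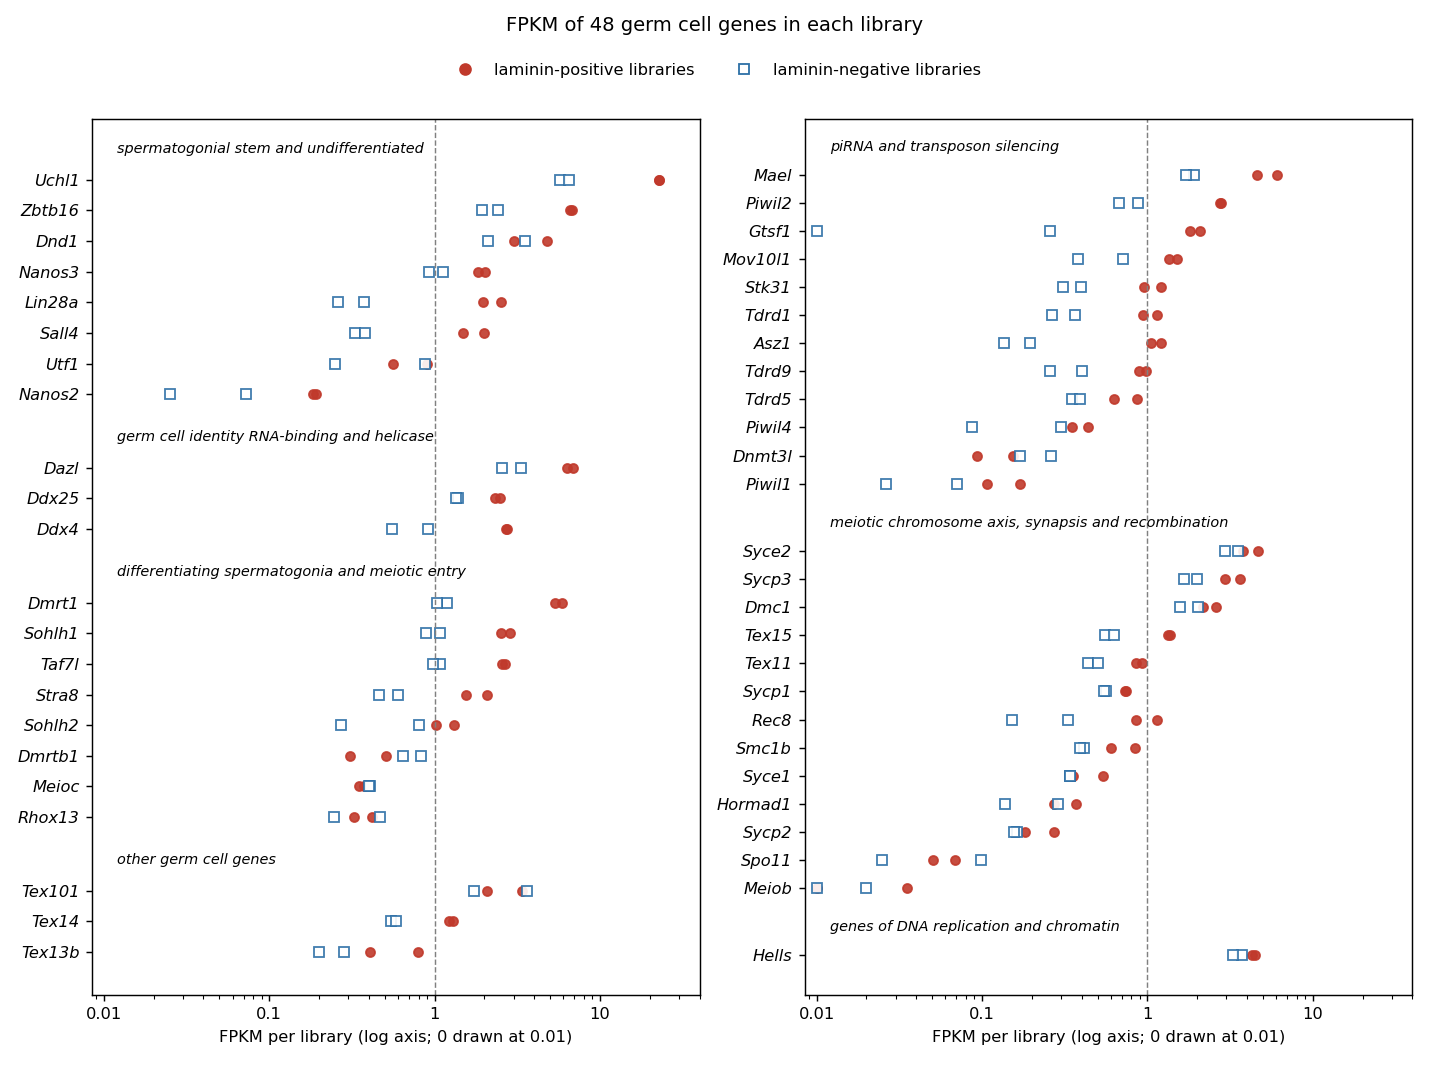
FPKM of each of the 48 germ cell genes in each library, on a log axis and grouped by stage, with laminin-positive libraries as filled points and laminin-negative libraries as open squares; the dashed line is at 1 FPKM and a value of 0 is drawn at 0.01. Both filled points lie to the right of both squares for 38 genes and to the left for 3.

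Differences were tested with limma on log2(FPKM + 1) over the 12348 rows that reached 1 FPKM in at least 2 of the 4 libraries, with Benjamini-Hochberg adjustment over all of them and a threshold of 0.05. Log2 differences are on this scale, on which changes of genes near or under 1 FPKM come out too small. The numbers 1 and 2 of the libraries are not said to mark separate animals, so p-values rest on spread between these libraries, which may be technical. Most of the spread used for a gene was shared from other genes of similar level (median prior degrees of freedom 8.21, against 2 residual). Of the 26 germ cell genes that passed this filter, 21 rose in laminin-positive cells and 0 fell, while 26.6% of all tested rows rose and 26.3% fell. At an unadjusted p under 0.05, 23 were higher and 0 lower. A log2 difference of at least 1 together with the call was met by 9 of the 26, against 7.29% of tested rows. Of these 9, Lin28a, Sall4, Ddx4, Piwil2 and Gtsf1 passed the filter through the laminin-positive libraries alone. Only Zbtb16, Uchl1, Dmrt1 and Mael reached it in both populations, so the 9 cannot be set directly against the 7.29%. The median log2 difference was 0.85 over these 26 genes and 0.01 over all tested rows. However, 11 of the 26 passed the filter through the laminin-positive libraries alone and so had to differ, and 22 genes were below it. Among the 15 with at least 1 FPKM in a library of each population, 10 rose. Of these 10, Nanos3, Sohlh1 and Taf7l had a laminin-negative library under 1 FPKM. Their laminin-positive libraries alone would have passed the filter, whereas their laminin-negative libraries alone would not. Without the filter, 27 of all 48 genes rose and 0 fell, against 19.0% of 18255 rows that rose, and the median log2 difference of the 48 was 0.52. In that fit 30 were higher and 1 was lower (Dmrtb1) at an unadjusted p under 0.05. With libraries set to equal FPKM sums, 4273 of all tested rows rose and 2371 fell, so that 64.3% of the calls were higher, against 50.3% with the values as deposited; 26 of 27 germ cell genes then rose. An ordinary linear model, with no variance shared across genes, left 9 of the 21 calls (Zbtb16, Uchl1, Ddx25, Dmrt1, Taf7l, Piwil2, Asz1, Tex15 and Tex14) and no other germ cell gene, with 1346 rows higher and 1211 lower in all.

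**Figure D2:**
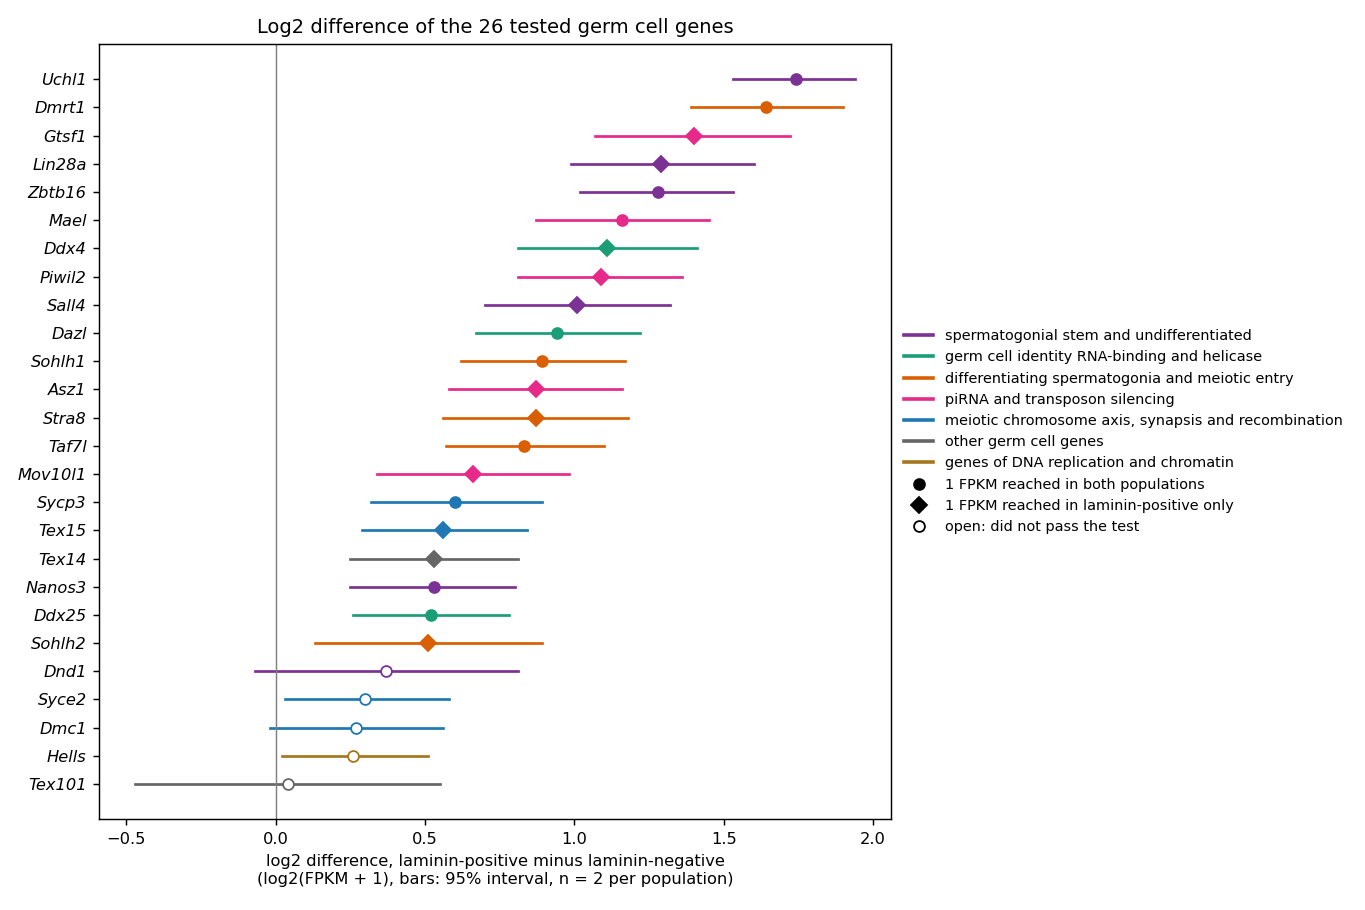
Log2 difference, laminin-positive minus laminin-negative, of the 26 tested germ cell genes on log2(FPKM + 1), with 95% intervals from limma (n = 2 libraries per population), coloured by stage group; diamonds are genes that reached 1 FPKM only in laminin-positive libraries and open symbols did not pass the test. Uchl1 lies farthest to the right at 1.74 and Tex101 lies nearest 0 at 0.04.

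Genes of spermatogonial stem and undifferentiated cells gave the largest sum, 41.9 and 38.2 FPKM in laminin-positive libraries against 12 and 14.8 FPKM in laminin-negative libraries, a ratio of 2.99. Of 8 genes, 6 were tested, 2 of them through the laminin-positive libraries alone, and 5 rose. Uchl1, a deubiquitinase of spermatogonia and neurons (chromosome 5, 66676091 to 66687234, GRCm38), had the highest level of the 48, at 22.7 and 22.6 FPKM in laminin-positive and 5.70 and 6.53 FPKM in laminin-negative libraries. The populations were far apart (22.7 ± 0.0629 against 6.12 ± 0.587 FPKM, SD, n = 2 each, 3.71-fold), and the log2 difference was 1.74 (SE 0.09, limma adjusted p = 8.23e-08). Its row in the table spans 49.6 kb beyond the annotated gene, so its value is uncertain. Without Uchl1 the group's ratio was 2.38. Zbtb16 (PLZF, a repressor needed for stem cell renewal; chromosome 9, 48654297 to 48836222) had 6.73 and 6.59 FPKM in laminin-positive and 2.42 and 1.93 FPKM in laminin-negative libraries. This was 6.66 ± 0.0996 against 2.17 ± 0.346 FPKM (SD, n = 2 each, 3.07-fold; log2 difference 1.28, SE 0.12, limma adjusted p = 5.12e-06).

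Lin28a and Sall4, which mark undifferentiated spermatogonia, reached 1 FPKM in laminin-positive cells only. Lin28a, an RNA-binding protein that blocks let-7 maturation (chromosome 4, 134003330 to 134018841), had 2.52 and 1.95 FPKM in laminin-positive and 0.261 and 0.374 FPKM in laminin-negative libraries. The ratio of the means, 7.04, was the highest of the 46 genes with a value above 0 in both laminin-negative libraries (2.24 ± 0.402 against 0.318 ± 0.0798 FPKM, SD, n = 2 each; log2 difference 1.29, SE 0.14, limma adjusted p = 1.75e-05). Sall4, a zinc finger factor (chromosome 2, 168748332 to 168767943), had 2 and 1.48 FPKM in laminin-positive and 0.332 and 0.380 FPKM in laminin-negative libraries (4.89-fold, log2 difference 1.01, SE 0.14, limma adjusted p = 1.21e-04). Nanos3, an RNA-binding repressor, had 2.02 and 1.83 FPKM in laminin-positive and 0.930 and 1.13 FPKM in laminin-negative libraries and rose (log2 difference 0.53, SE 0.12, limma adjusted p = 0.00466). Dnd1, a germ cell RNA-binding protein, overlapped between populations, with 4.79 and 3.03 FPKM in laminin-positive and 2.09 and 3.52 FPKM in laminin-negative libraries, and did not pass the test (log2 difference 0.37, SE 0.20, limma adjusted p = 0.144). That call changed with single libraries and with the scaling. The limma adjusted p was 0.00946 without laminin-positive replicate 2 and 0.0334 without laminin-negative replicate 2, against 0.682 and 0.713 without either replicate 1, over a range of 0.00946 to 0.713 across alternatives. It was 0.0465 with equal sums and all libraries kept. Dnd1 also overlaps exons of Wdr55 on the opposite strand, at 6.65 and 7.78 FPKM in laminin-positive and 8.84 and 6.54 FPKM in laminin-negative libraries, and no source used here states the strand setting of the counting. The row of Dnd1 reaches 3.43 kb beyond the annotated gene. Nanos2, an RNA-binding protein that holds stem cells undifferentiated, stayed low, at 0.191 and 0.183 FPKM in laminin-positive and 0.0252 and 0.0722 FPKM in laminin-negative libraries, and rose in the fit without the filter. Utf1 overlapped, with 0.896 and 0.557 FPKM in laminin-positive and 0.249 and 0.877 FPKM in laminin-negative libraries.

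The general germ cell markers rose together. Ddx4 (the helicase VASA; chromosome 13, 112598333 to 112652475), whose promoter is printed first above, had 2.69 and 2.73 FPKM in laminin-positive libraries against 0.553 and 0.910 FPKM in laminin-negative libraries. The means were 2.71 ± 0.0307 and 0.732 ± 0.252 FPKM (SD, n = 2 each), a 3.70-fold difference (log2 difference 1.11, SE 0.14, limma adjusted p = 5.20e-05). Ddx4 passed the filter through the laminin-positive libraries alone and so had to differ. In the fit without the filter it also rose (limma adjusted p = 0.00269). Dazl (chromosome 17, 50279395 to 50293636), which binds the 3′ ends of germ cell messengers to promote their translation, had 6.82 and 6.30 FPKM in laminin-positive and 2.56 and 3.32 FPKM in laminin-negative libraries. All 4 libraries thus held Dazl above 1 FPKM, and the populations differed 2.23-fold (6.56 ± 0.364 against 2.94 ± 0.539 FPKM, SD, n = 2 each; log2 difference 0.94, SE 0.12, limma adjusted p = 7.88e-05). Ddx25, a testis helicase expressed in germ cells and in Leydig cells, had 2.31 and 2.48 FPKM in laminin-positive and 1.38 and 1.35 FPKM in laminin-negative libraries (log2 difference 0.52, SE 0.12, limma adjusted p = 0.00345). The 3 genes summed to 11.8 and 11.5 FPKM in laminin-positive against 4.50 and 5.59 FPKM in laminin-negative libraries, a ratio of 2.31.

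Genes of differentiating spermatogonia and meiotic entry summed to 14.9 and 15.1 FPKM in laminin-positive and to 5.53 and 5.84 FPKM in laminin-negative libraries, a ratio of 2.64. All 5 tested genes of the 8 rose, 2 of them tested through the laminin-positive libraries alone, while Dmrtb1 and Meioc were lower in both laminin-positive than in both laminin-negative libraries. Dmrt1 (chromosome 19, 25505618 to 25604329), a factor of spermatogonia and of Sertoli cells, had the largest level and difference, with 5.87 and 5.34 FPKM in laminin-positive and 1.19 and 1.03 FPKM in laminin-negative libraries. Its means were 5.60 ± 0.375 and 1.11 ± 0.114 FPKM (SD, n = 2 each), 5.03-fold apart (log2 difference 1.64, SE 0.12, limma adjusted p = 6.79e-07). Stra8, the retinoic acid target needed for meiotic initiation, had 1.54 and 2.08 FPKM in laminin-positive and 0.602 and 0.463 FPKM in laminin-negative libraries (log2 difference 0.87, SE 0.14, limma adjusted p = 3.90e-04). Sohlh1, a helix-loop-helix factor of differentiation with the 3 E-boxes printed above, had 2.85 and 2.51 FPKM in laminin-positive and 1.08 and 0.883 FPKM in laminin-negative libraries (log2 difference 0.89, SE 0.12, limma adjusted p = 1.39e-04). Taf7l, an X-linked germ cell subunit of TFIID, had 2.57 and 2.67 FPKM in laminin-positive libraries against 1.08 and 0.977 FPKM in laminin-negative libraries (log2 difference 0.83, SE 0.12, limma adjusted p = 1.56e-04).

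Sohlh2, the partner of Sohlh1, had 1.02 and 1.31 FPKM in laminin-positive and 0.273 and 0.800 FPKM in laminin-negative libraries, so the laminin-negative libraries were far apart. Its call was weak (log2 difference 0.51, SE 0.17, limma adjusted p = 0.0287) and was lost without the filter (0.0864), with quantile normalization (0.114), without laminin-positive replicate 2 (0.0967) and without laminin-negative replicate 1 (0.175), within a range of limma adjusted p from 0.004 to 0.294. Dmrtb1, which in the mouse promotes the switch of late spermatogonia from mitosis into meiosis, was at 0.309 and 0.509 FPKM in laminin-positive and 0.643 and 0.822 FPKM in laminin-negative libraries. It was below the filter, and without the filter it did not pass the test (log2 difference -0.30, limma adjusted p = 0.0746). Meioc, needed to hold the meiotic program, was near level at 0.349 and 0.374 FPKM in laminin-positive and 0.409 and 0.4 FPKM in laminin-negative libraries. X-linked Rhox13 overlapped, with 0.418 and 0.327 FPKM in laminin-positive and 0.247 and 0.466 FPKM in laminin-negative libraries.

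The piRNA and transposon silencing genes had the highest ratio of sums among the groups, 3.24, with 16.7 and 17.5 FPKM in laminin-positive and 4.93 and 5.59 FPKM in laminin-negative libraries. Of 12 genes, 11 were above in both laminin-positive libraries, 5 were tested and all 5 of those rose, 4 of them passing the filter through the laminin-positive libraries alone. Without the filter 9 of the 12 rose. Mael (maelstrom, a nuage protein of piRNA making; chromosome 1, 166201201 to 166238747) led the group at 4.62 and 6.03 FPKM in laminin-positive and 1.92 and 1.72 FPKM in laminin-negative libraries. The spread was wide within laminin-positive cells (5.33 ± 1.0 against 1.82 ± 0.139 FPKM, SD, n = 2 each), yet the 2.93-fold difference passed the test (log2 difference 1.16, SE 0.13, limma adjusted p = 2.97e-05). Piwil2 (MILI, a PIWI protein of fetal and postnatal germ cells; chromosome 14, 70372477 to 70429383) had 2.79 and 2.75 FPKM in laminin-positive and 0.677 and 0.877 FPKM in laminin-negative libraries (3.56-fold, log2 difference 1.09, SE 0.12, limma adjusted p = 2.86e-05). Gtsf1, a PIWI partner (chromosome 15, 103402405 to 103430470), had 1.82 and 2.09 FPKM in laminin-positive libraries, and was 0.257 FPKM in laminin-negative replicate 1 and listed at 0 in replicate 2 (log2 difference 1.40, SE 0.15, limma adjusted p = 1.65e-05).

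Asz1, a mitochondrial partner of the pathway, had 1.21 and 1.05 FPKM in laminin-positive and 0.196 and 0.135 FPKM in laminin-negative libraries (6.82-fold, log2 difference 0.87, SE 0.13, limma adjusted p = 2.44e-04). Mov10l1, the helicase that feeds piRNA precursors to PIWI proteins, had 1.51 and 1.35 FPKM in laminin-positive and 0.380 and 0.715 FPKM in laminin-negative libraries (log2 difference 0.66, SE 0.14, limma adjusted p = 0.00285). The Tudor-domain genes lay outside the filter. Tdrd1 had 1.14 and 0.945 FPKM in laminin-positive and 0.265 and 0.366 FPKM in laminin-negative libraries. For Tdrd9 the values were 0.886 and 0.986 FPKM in laminin-positive and 0.257 and 0.401 FPKM in laminin-negative libraries, and for Tdrd5 0.863 and 0.629 FPKM in laminin-positive against 0.348 and 0.392 FPKM in laminin-negative libraries. Stk31, another Tudor-domain protein, had 1.20 and 0.955 FPKM in laminin-positive and 0.308 and 0.397 FPKM in laminin-negative libraries. These 4 genes rose in the fit without the filter, with groups that did not overlap.

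The other PIWI genes, which mark other stages than Piwil2, were scarce. Piwil4 (MIWI2, the nuclear PIWI protein of fetal prospermatogonia) had 0.348 and 0.439 FPKM in laminin-positive and 0.0873 and 0.300 FPKM in laminin-negative libraries. Piwil1 (MIWI, of pachytene spermatocytes and round spermatids) had 0.169 and 0.107 FPKM in laminin-positive and 0.0704 and 0.0262 FPKM in laminin-negative libraries. Dnmt3l, the cofactor of DNA methylation in prospermatogonia, was the group's exception, at 0.0937 and 0.154 FPKM in laminin-positive and 0.170 and 0.263 FPKM in laminin-negative libraries. Its exons overlap Aire on the opposite strand and its row reaches 11.9 kb beyond the annotated gene, so this low value is uncertain.

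The 13 genes of the meiotic chromosomes summed to 14.7 and 16.7 FPKM in laminin-positive and 9.62 and 10.2 FPKM in laminin-negative libraries, a ratio of 1.58. Both laminin-positive libraries were above both laminin-negative libraries for 10 of them. Of 4 tested, 2 rose (Sycp3 and Tex15), Tex15 after passing the filter through the laminin-positive libraries alone. Without the filter 4 of the 13 rose, against 19.0% of 18255 rows. Of those rows, 36.3% had both laminin-positive libraries above both laminin-negative libraries, and 26.6% of the 12348 tested rows rose. The group was not tested against these shares. Syce2, a central element protein of the synaptonemal complex and the highest of the group, had 3.80 and 4.65 FPKM in laminin-positive and 3.51 and 2.95 FPKM in laminin-negative libraries. Its row reaches 5.70 kb beyond the annotated gene, so its value is uncertain. The populations did not overlap, but the difference did not pass the test (4.22 ± 0.599 against 3.23 ± 0.393 FPKM, SD, n = 2 each; log2 difference 0.30, SE 0.13, limma adjusted p = 0.0643). The limma adjusted p of Syce2 was 0.0232 with equal sums, 0.0464 without laminin-positive replicate 1 and 0.0449 without laminin-negative replicate 1. Dmc1, the meiotic recombinase, was similar, at 2.17 and 2.59 FPKM in laminin-positive and 1.58 and 2.03 FPKM in laminin-negative libraries (log2 difference 0.27, SE 0.13, limma adjusted p = 0.108, and 0.0399 with equal sums).

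Sycp3, of the chromosome axis, had 2.96 and 3.63 FPKM in laminin-positive and 1.66 and 2 FPKM in laminin-negative libraries (log2 difference 0.60, SE 0.13, limma adjusted p = 0.00258). Its exons overlap Chpt1 on the opposite strand, at 33.3 and 28.9 FPKM in laminin-positive and 21.0 and 19.5 FPKM in laminin-negative libraries, and its row reaches 30.7 kb beyond the gene, so reads of the 2 genes may not be separable and its value is uncertain. Tex15, needed for meiotic repair and transposon silencing, had 1.34 and 1.36 FPKM in laminin-positive and 0.554 and 0.630 FPKM in laminin-negative libraries (log2 difference 0.56, SE 0.12, limma adjusted p = 0.00318). Rec8, the meiotic cohesin, had 0.856 and 1.15 FPKM in laminin-positive and 0.152 and 0.333 FPKM in laminin-negative libraries, just outside the filter. X-linked Tex11 had 0.923 and 0.850 FPKM in laminin-positive and 0.439 and 0.506 FPKM in laminin-negative libraries, and rose together with Rec8 in the fit without the filter. The cohesin Smc1b had 0.837 and 0.603 FPKM in laminin-positive and 0.416 and 0.390 FPKM in laminin-negative libraries. Sycp1, the transverse filament of the synaptonemal complex, had 0.737 and 0.728 FPKM in laminin-positive and 0.562 and 0.544 FPKM in laminin-negative libraries.

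The remaining meiotic genes were under 1 FPKM in every library. Syce1 had 0.354 and 0.536 FPKM in laminin-positive and 0.342 and 0.341 FPKM in laminin-negative libraries, and Sycp2 0.273 and 0.181 FPKM in laminin-positive against 0.162 and 0.156 FPKM in laminin-negative libraries. Hormad1 overlapped between the populations, at 0.370 and 0.271 FPKM in laminin-positive and 0.137 and 0.287 FPKM in laminin-negative libraries. Spo11, the enzyme of meiotic double-strand breaks, was at 0.0503 and 0.0687 FPKM in laminin-positive and 0.0985 and 0.0248 FPKM in laminin-negative libraries. Meiob, a meiotic single-strand binding protein, was listed at 0 in 1 library of each population and reached 0.0351 FPKM in the other laminin-positive and 0.0199 FPKM in the other laminin-negative library.

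**Figure D3:**
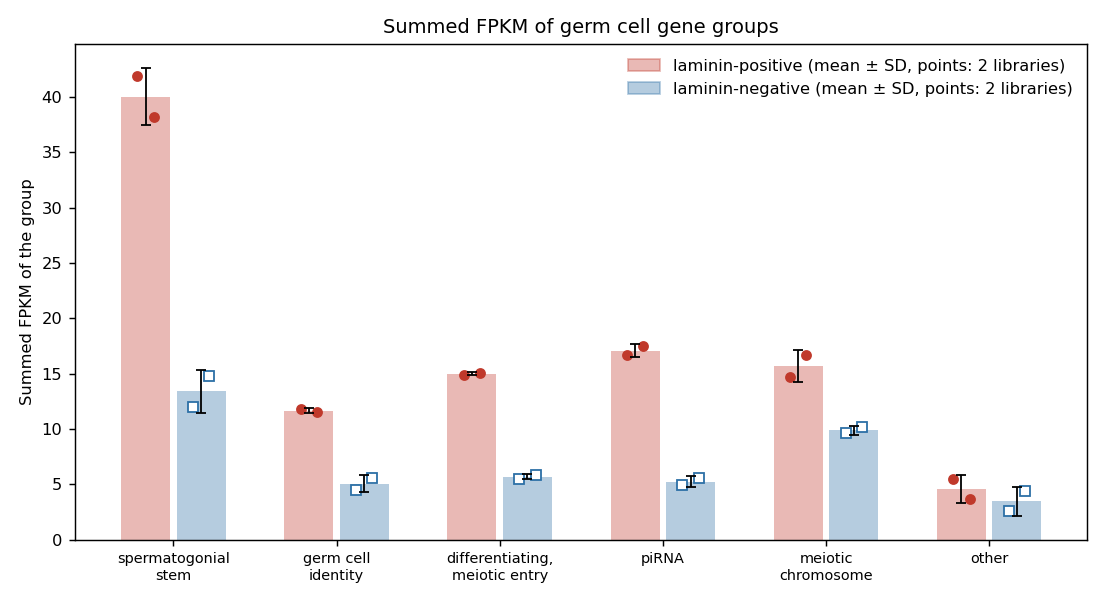
Summed FPKM of 6 stage groups of germ cell genes, with laminin-positive bars left of laminin-negative bars (mean ± SD, n = 2 libraries each; points are the libraries). Sums were 40.1 ± 2.55 against 13.4 ± 1.98 FPKM for spermatogonial stem genes and 15.7 ± 1.41 against 9.91 ± 0.404 FPKM for meiotic chromosome genes.

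Ordered by the ratio of sums, the groups ran from piRNA genes (3.24) through spermatogonial stem (2.99), differentiating (2.64), identity (2.31) and meiotic chromosome genes (1.58) to the 3 other germ cell genes (1.31) and Hells (1.25). Differences between these ratios were not tested, and a group's ratio follows its highest genes. Tex14, a germ cell intercellular bridge protein, had 1.30 and 1.22 FPKM in laminin-positive and 0.546 and 0.582 FPKM in laminin-negative libraries (log2 difference 0.53, SE 0.12, limma adjusted p = 0.00451). However, it passed the filter through the laminin-positive libraries alone, and its row in the table spans 821 kb beyond the annotated gene. Tex101, a germ cell surface protein, was high in 1 library of each population, with 3.37 and 2.06 FPKM in laminin-positive and 1.73 and 3.62 FPKM in laminin-negative libraries (log2 difference 0.04, SE 0.23, limma adjusted p = 0.896). X-linked Tex13b had 0.788 and 0.408 FPKM in laminin-positive and 0.282 and 0.199 FPKM in laminin-negative libraries. Hells, a chromatin remodeller of dividing cells generally, had 4.30 and 4.49 FPKM in laminin-positive and 3.73 and 3.28 FPKM in laminin-negative libraries (4.39 ± 0.134 against 3.50 ± 0.318 FPKM, SD, n = 2 each; log2 difference 0.26, SE 0.11, limma adjusted p = 0.0687). For Hells the limma adjusted p was 0.0244 with equal sums, 0.0444 without the intensity trend and 0.0464 without laminin-negative replicate 1. Of the 4 X-linked genes (Rhox13, Taf7l, Tex11 and Tex13b), Taf7l passed the filter.

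A further list of 47 germ cell genes of the same stages gave 45 rows, of which 19 were tested, 8 rose and 1 fell. Of all tested rows, 26.6% rose and 26.3% fell. Of the 8 that rose, 5 (Tex19.1, Slc25a31, Nxf2, Bcl6b and Ybx2) passed the filter through the laminin-positive libraries alone and so had to differ. The 8 of 19 can therefore not be set directly against the 26.6%. Without the filter, 15 of the 45 rose and 1 fell, against 19.0% of 18255 rows that rose. Both laminin-positive libraries were above both laminin-negative libraries for 23 of the 45 and below for 2 (Kit and Foxo1). Over the 18255 rows these orders held for 36.3% and 31.3%. Id4, a marker of the stem cell pool that is also made by other cells, had 17.5 and 15.0 FPKM in laminin-positive and 3.53 and 3 FPKM in laminin-negative libraries (log2 difference 2.01, SE 0.11, limma adjusted p = 1.05e-07). Fkbp6, a chaperone partner in the piRNA pathway, had 8.63 and 7.67 FPKM in laminin-positive and 2.66 and 1.89 FPKM in laminin-negative libraries (log2 difference 1.49, SE 0.13, limma adjusted p = 4.20e-06). Rbm46, the remaining gene that rose and reached the filter in both populations, had a log2 difference of 0.86. Those that passed through laminin-positive libraries alone ranged in log2 difference from 0.38 (Ybx2) to 1.17 (Tex19.1).

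Kit, the receptor of differentiating spermatogonia and also of Leydig cells, was the gene of that list that fell, with 2.39 and 1.84 FPKM in laminin-positive and 38.7 and 37.4 FPKM in laminin-negative libraries (log2 difference -3.65, SE 0.11, limma adjusted p = 7.73e-10). Etv5 and Foxo1, stem cell factors that are widely expressed, were the list's most abundant with Kit. Etv5 had 22.4 and 23.4 FPKM in laminin-positive and 24.4 and 22.5 FPKM in laminin-negative libraries (limma adjusted p = 0.772), and Foxo1 had 12.9 and 13.5 FPKM in laminin-positive against 14.6 FPKM in both laminin-negative libraries (limma adjusted p = 0.203). Of 22 genes of pachytene spermatocytes and spermatids, 19 were below the filter, and these 19 summed to 4.06 and 4.91 FPKM in laminin-positive and 3.71 and 2.48 FPKM in laminin-negative libraries. For 8 of these 19, both laminin-positive libraries were above both laminin-negative libraries, and for 0 they were below. Over 18255 rows these orders held for 36.3% and 31.3%. Without the filter 1 of the 19 rose. This was Tnp1, at 0.114 and 0.208 FPKM in laminin-positive libraries and listed at 0 in both laminin-negative libraries. The protamine gene Prm2 and the sperm channel gene Catsper1 were listed at 0 in all 4 libraries. The remaining 3 of this list are not restricted to the germ line: the chaperone gene Hspa2 rose (95.7 and 89.8 FPKM in laminin-positive against 27.9 and 26.5 FPKM in laminin-negative libraries, log2 difference 1.73, limma adjusted p = 1.48e-08), Crem fell (4.62 and 5.35 FPKM in laminin-positive against 8.48 and 9.69 FPKM in laminin-negative libraries, log2 difference -0.75, limma adjusted p = 2.01e-04) and Rfx2 did not pass the test (5.72 and 4.50 FPKM in laminin-positive against 4.67 and 4.53 FPKM in laminin-negative libraries, log2 difference 0.12, limma adjusted p = 0.424).

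Markers of other cells moved along the same contrast. Of 14 Sertoli cell genes, 12 were tested, 6 rose (Amh, Dhh, Cldn11, Wt1, Amhr2 and Aard) and 3 fell (Ctsl, Clu and Kitl). Among the 12348 tested rows, 26.6% rose and 26.3% fell. The Sertoli cell list summed to 488 and 455 FPKM in laminin-positive and to 494 and 491 FPKM in laminin-negative libraries. The most abundant were Ctsl at 191 and 197 FPKM in laminin-positive and 228 and 225 FPKM in laminin-negative libraries, Clu at 98.3 and 77.2 FPKM in laminin-positive and 129 and 136 FPKM in laminin-negative libraries, and Aard at 100 and 104 FPKM in laminin-positive and 51.8 and 49 FPKM in laminin-negative libraries. Ctsl and Clu are widely expressed and fell, and Aard rose. Amh and Dhh passed the filter through the laminin-positive libraries alone. Named after their values were seen, Amh, the anti-Müllerian hormone, was at 6.99 and 4.79 FPKM in laminin-positive and 0.757 and 0.664 FPKM in laminin-negative libraries, and Dhh, the Sertoli cell hedgehog ligand, was at 3.27 and 2.59 FPKM in laminin-positive and 0.311 and 0.213 FPKM in laminin-negative libraries. Cldn11, the tight junction protein of the blood-testis barrier, had 20.5 and 13 FPKM in laminin-positive and 0.872 and 1.28 FPKM in laminin-negative libraries. Kitl, the KIT ligand, which other cells make too, fell, at 7.37 and 7.17 FPKM in laminin-positive and 34.0 and 36.7 FPKM in laminin-negative libraries (log2 difference -2.14, limma adjusted p = 7.62e-09). Gata1 (log2 difference 0.03, limma adjusted p = 0.869) and Inha (0.28, limma adjusted p = 0.0752) did not pass the test. Sox9 did not pass it either (8.81 and 6.61 FPKM in laminin-positive, 10.3 and 9.08 FPKM in laminin-negative libraries, limma adjusted p = 0.0674), and Fshr was listed at 0 in 1 laminin-negative library. All 9 tested macrophage genes of 12 rose, 7 of them tested through the laminin-positive libraries alone, and the 12 summed to 54.8 and 48 FPKM in laminin-positive and 7.50 and 4.84 FPKM in laminin-negative libraries. Among these, the lysozyme gene Lyz2 had 11.9 and 11.6 FPKM in laminin-positive and 1.95 and 0.586 FPKM in laminin-negative libraries, C1qc of the complement system 9.19 and 8.38 FPKM in laminin-positive and 0.241 and 0.413 FPKM in laminin-negative libraries, and Cd68 7.46 and 5.52 FPKM in laminin-positive and 3.50 and 2.56 FPKM in laminin-negative libraries. The part of these cells in the germ cell result was not tested.

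The sorted populations themselves stood apart clearly. All 9 smooth muscle and peritubular myoid genes rose, with sums of 5562 and 5614 FPKM in laminin-positive and 205 and 190 FPKM in laminin-negative libraries, as did all 7 pericyte genes (335 and 343 FPKM in laminin-positive against 62.7 and 59.9 FPKM in laminin-negative libraries). Acta2, Myh11 and Tagln, of the contractile apparatus, rose by log2 differences of 5.24, 5.39 and 5.41, and Mcam, Rgs5 and Cspg4 by 4.98, 4.38 and 0.67. All 8 Leydig cell genes fell, with sums of 246 and 195 FPKM in laminin-positive and 5057 and 4796 FPKM in laminin-negative libraries, the row of Insl3 being shared with Jak3. Insl3, Cyp17a1 and Hsd3b1 led that list, with log2 differences of -5.22, -4.74 and -3.54. Of 8 endothelial genes, 6 (Pecam1, Kdr, Tie1, Emcn, Vwf and Erg) were above in both laminin-positive libraries. These 6 rose in the fit without the filter, and Cdh5 and Tek fell. Over 18255 rows, 36.3% were above in both laminin-positive libraries and 19.0% rose in that fit. With the filter 3 of the 8 endothelial genes were tested. Cdh5 fell (log2 difference -4.01). Tek fell (-1.15) after passing through the laminin-negative libraries alone. Emcn rose (0.83) after passing through the laminin-positive libraries alone. The endothelial sum, 14.7 and 14.4 FPKM in laminin-positive against 169 and 177 FPKM in laminin-negative libraries, was mostly Cdh5, at 9.89 and 9.25 FPKM in laminin-positive and 165 and 173 FPKM in laminin-negative libraries. The erythroid genes were below the filter, and the most abundant, Hbb-bs, Hba-a1 and Alas2, stayed under 1 FPKM in every library. Of the 20 cell cycle genes, 2 were called higher (Ccna2 and Bub1) and 4 lower (Ccnb2, Mcm3, Mcm4 and Mcm6). Over all tested rows these calls held for 26.6% and 26.3%. The 20 genes summed to 293 and 281 FPKM in laminin-positive against 314 and 323 FPKM in laminin-negative libraries. The most abundant, Pcna, Mcm6 and Mcm7, had log2 differences of -0.11, -0.42 and -0.05, of which Mcm6 passed the test.

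**Figure D4:**
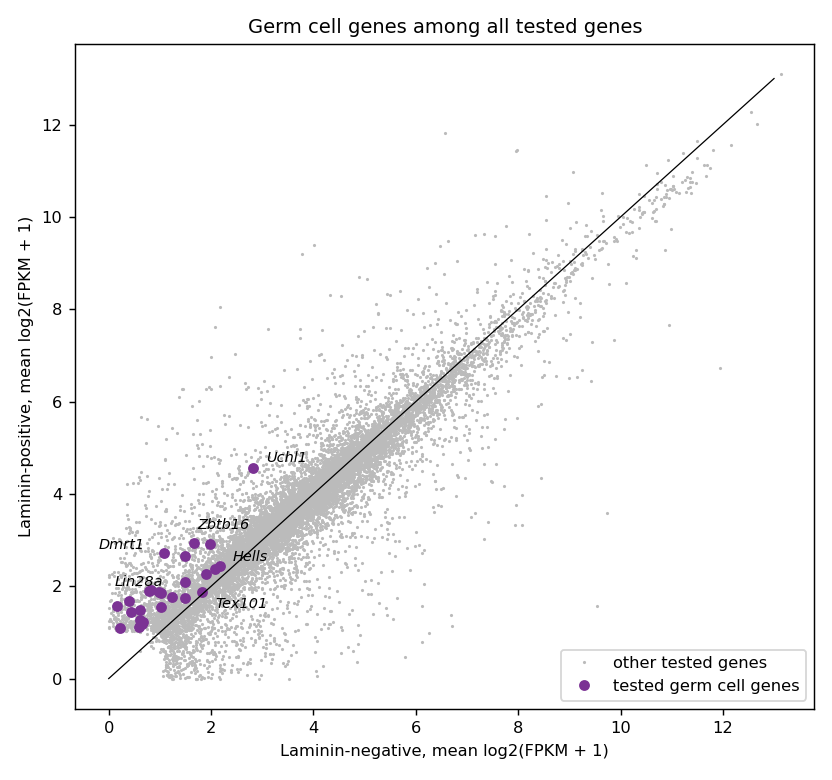
Mean log2(FPKM + 1) of each of the 12348 tested rows in laminin-positive (vertical axis) against laminin-negative cells (horizontal axis), with the 26 tested germ cell genes as large points and the line of equal values. The germ cell genes lie in the low corner, 21 of them called higher and each of the 26 on or above the line.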

How the data were processed

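Per the labels' protocols, sorted cells gave RNA through the RNeasy micro kit, and a NEBNext Ultra Directional kit gave the 4 libraries. The authors deposited FPKM values per gene locus in 1 table, with 2 columns for each population. TopHat2 2.1.1 and Cufflinks 2.2.1 are named in the submitters' processing notes, while no source used here states the genome build, the annotation, the strand setting or filters. FPKM divide by transcript length and by library total, so they are relative values, and levels were compared between genes on this per-length scale. Of 21203 symbols compared with GENCODE M21 on GRCm38, 99.6% of the table's loci overlapped the gene of the same name, as did all 48 germ cell loci, and coordinates given are those of that annotation.

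From these values, log2(FPKM + 1) was fitted with limma 3.58.1 in R 4.3.3 (empirical Bayes with intensity trend, two-sided) over 12348 rows with at least 1 FPKM in at least 2 libraries. The fit was tested on simulated data, but the outcome is not given here and no call rests on it. Calls are Benjamini-Hochberg adjusted p under 0.05. SD are over the 2 libraries of a population and ratios are of group means. The genes and lists were chosen with earlier results of these data known. Values in every library are given for genes called with a log2 difference of at least 1, for the highest gene of each group, for Ddx4 and Dazl, and beyond this rule for the other germ cell genes as an account of all of them. Of other lists, the 3 genes with the highest mean are named, and for the further germ cell list also the 3 largest differences. Others of these lists, such as Sox9, Amh, Dhh, Cldn11, Fshr, Gata1, Inha, Kitl, Prm2, Catsper1 and those in short counts, were named after their values were seen. Alternatives changed the pseudocount (0.1), the filter, the scaling (equal sums leaving out the ribosomal row Rn45s, and quantiles), the variance model, a block on replicate number and the libraries used.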

Additional observations from a re-analysis of the deposited data

How the results depend on the processing

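The number of germ cell genes called higher in laminin-positive cells, 21, was 21 with a pseudocount of 0.1, 27 of 48 without the filter, 16 of 21 with a filter on the mean, 26 of 27 with equal sums, 20 with quantile normalization and 22 without the intensity trend. It was 9 with no variance shared across genes, where the calls over all rows came to 1346 higher and 1211 lower, against 3288 and 3245; this alternative leaves 2 residual degrees of freedom per gene. Leaving out 1 library gave 21 to 22 germ cell genes, and 2587 to 3254 rows higher and 2610 to 3064 lower over all rows; the library left alone is then assumed to vary like the other population. No germ cell gene was called lower by limma under any of the 12 alternatives, with 0 to 1 lower at an unadjusted p under 0.05. Tex101 changed sign, at -0.04 with quantile normalization and between -0.34 and 0.42 when 1 library was left out (-0.22 without laminin-positive replicate 1, -0.34 without laminin-negative replicate 1); the cause was not tested. The other 25 kept their direction under every alternative in which they were tested.

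With the replicate block, 21 germ cell genes were called higher and 0 lower. The labels do not say that a number pairs libraries, and the deviations of same-numbered libraries correlated at 0.00809 across genes. The median log2 difference of all rows was 0.12 with equal sums and 0.01 as deposited. Low levels limit what can be seen: 34 of 48 genes averaged under 1 FPKM in laminin-negative cells, where ratios are least precise.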
